A study of Bos taurus with 4 samples.

Results

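The cyclic nucleotide phosphodiesterases of 8 genes (Pde3a, Pde3b, Pde4a, Pde4b, Pde4d, Pde7b, Pde8a and Pde10a) were followed in chromaffin cells of cattle, which store and secrete catecholamines in the adrenal medulla, after treatment with PACAP. The members were all spotted mouse cDNA clones whose platform annotation gave 1 of these symbols, or Pde4c, for which 0 clones were held. The rule found 14 clones among the 35964 of the library. The treated cells received 100 ng/ml of PACAP in culture for 6 h at 37 C, and the other group was untreated control cells. RNA of each treated culture was labelled with Cy5 and hybridised together with Cy3-labelled control RNA of the same repeat number, on 1 array for each of 4 repeats, which the submitters' design text calls biological. The dyes were swapped on no array, so any dye preference of a clone is part of its ratio and cannot be told apart from the treatment. The labels name the cell type as chromaffin cells but enter the tissue as brain, and give no genotype, age or animal. Whether the repeats came from separate animals is not stated, so the spread between them may be technical.

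PACAP (pituitary adenylate cyclase-activating polypeptide) is a neuropeptide that signals to adrenal chromaffin cells through a receptor coupled to adenylyl cyclase, which makes cyclic AMP from ATP. Phosphodiesterases end that signal by hydrolysing cyclic AMP, cyclic GMP or both, and the families differ in substrate, in regulation and in where they sit in the cell. In many cell types, raised cyclic AMP increases transcription of some phosphodiesterase genes, PDE4 genes among them, which shortens the response.

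Of the 14 clones, 7 had a title in the scanner tables that names a phosphodiesterase, 6 were titled only as expressed sequence tags, and 1, the Pde4a clone NIA10M23, was titled as a mapped DNA segment. Each of the 8 symbols has 1 bovine gene of the same name in the RefSeq table of ARS-UCD2.0. The sequence that a mouse clone shares with its bovine transcript was not analysed here. Signal of one clone cannot be set against that of another, so the values below compare PACAP with control within a clone.

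Each array held 37632 spots. Median signal over the library, in linear units per pixel with local background taken off, was 99.9 to 402.7 in the PACAP channel and 129.4 to 548.0 in the control channel. The PACAP channel exceeded 2 background SD for 91.9% to 98.4% of library spots on every array, against 80.9%, 52.95%, 46.02% and 98.3% in the control channel on repeats 1 to 4. A gene is represented below by its brightest clone. Of 13 listed chromaffin cell markers, 8 were measured, all with PACAP signal above background on at least 3 arrays and 5 with control signal above it. Of all 11739 genes measured, 11718 had such a PACAP signal and 8347 such a control signal. Signal above background therefore does not check the cell label. The defining markers Dbh and Pnmt, the enzymes that make noradrenaline and adrenaline, were not among those measured. Adrenal cortex markers were above background too, for 7 of 7 measured in the PACAP channel and 6 in the control channel. So were all 6 measured fibroblast markers, in both channels. At an unadjusted p under 0.05 (limma), 3 of the 8 chromaffin markers were higher in PACAP and 0 lower, with a median log2 ratio of 0.17. Among all 11739 genes, 508 were higher and 532 lower. Of the 7 cortex markers 0 passed in either direction, with a median of -0.26. None of the chromaffin or cortex markers passed the adjusted p. The part of either cell type in the results was not tested.

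No phosphodiesterase clone passed the test across the library. In RNA from whole cultures, fewer cells of a type and less RNA per cell cannot be told apart. To be tested, a clone needed a PACAP or control signal above 2 background SD on 3 or more arrays, which 13 of the 14 clones had and 35112 clones had in all. At an adjusted p under 0.05 (limma, Benjamini-Hochberg over all tested clones), 0 of the 13 were called, and so were 0% of all clones tested. The lowest adjusted p over the whole library was 0.454. With the same 4 arrays, the deposited log2 ratios gave 364 calls over the library, and 1 of them was a phosphodiesterase clone, Pde4d BMAPII7g12, at -4.60 (limma adjusted p = 0.0408), against 0.12 as reported here. On repeats 1 to 3 the deposited values of that clone were -0.754, -0.981 and -0.613. These are minus the log2 of the array-wide calibration factors described below (1.69, 1.97 and 1.53). The recomputed ratio takes this value, before centring on the array median, where both channels are at the floor of 1 after the second background subtraction. It is thus no measured equality of the channels. The signals before that subtraction were 329.6, 127.7 and 29.1 in PACAP, against 104.5, 77.6 and 35.9 in control. At an unadjusted p under 0.05 (limma), 2 of the 13 clones were lower, where 6.46% of all clones were. Counted in either direction, 10.4% of all clones passed this threshold. The 2 clones were the Pde3b clone BMAPI15F10 and the Pde4b clone NIA40F5. At the same threshold 0 of the 13 were higher, against 3.92% of all clones.

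Among the 13 tested clones, 7 had a mean log2 ratio above 0 and 6 below it. The median of their means was 0.02, against -0.01 over all tested clones. The means of 11 clones lay within 0.5 log2 units of 0, between -0.47 and 0.42. Of the 12 clones with a value on 4 arrays, 0 had the same sign on all of them, whereas 18.8% of all such clones did. The median SD between repeats was 0.72 log2 units for the phosphodiesterases and 0.55 over all tested clones. By array, 6, 8, 6 and 6 of the tested clones with a value were higher in PACAP on repeats 1 to 4, and 7, 5, 7 and 6 were lower. No repeat moved the family in one direction.

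**Figure D1:**
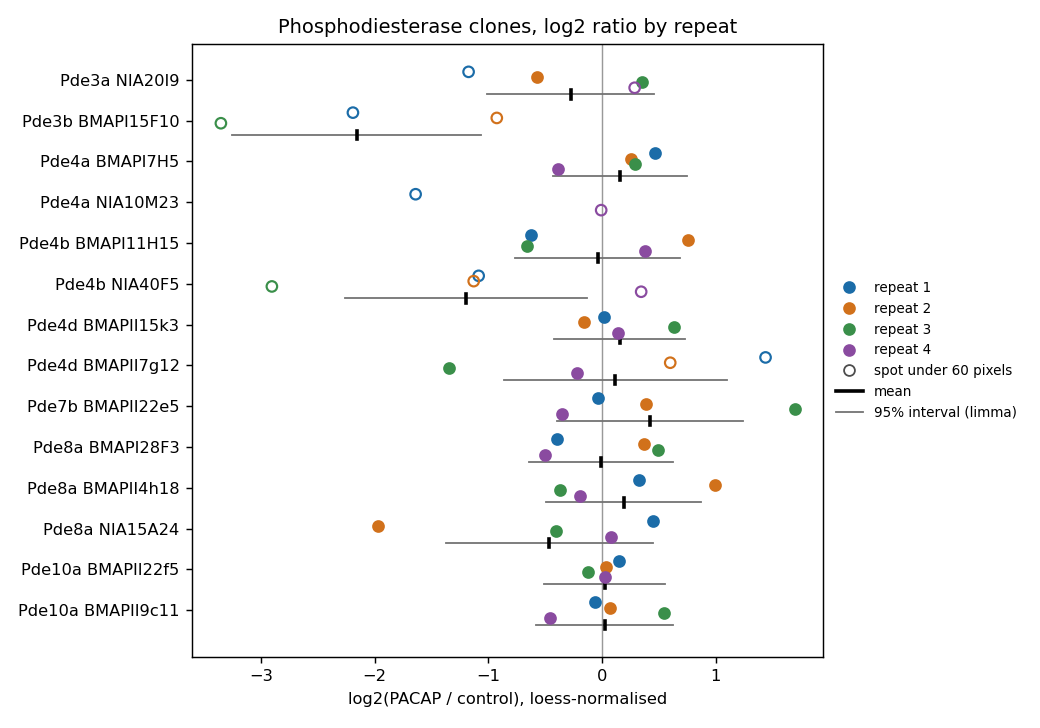
Loess-normalised log2 ratio of PACAP over control (horizontal axis) for each of the 14 clones, with a point for each repeat, hollow where the spot covered under 60 pixels, a black tick for the mean and a grey line for limma's 95% interval. The means of Pde3b BMAPI15F10 (-2.16) and Pde4b NIA40F5 (-1.19) lie apart from the others, which run from -0.47 to 0.42, and rest on hollow points alone.

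Pde3b encodes a phosphodiesterase that hydrolyses cyclic AMP and is inhibited by cyclic GMP. It is known for the antilipolytic action of insulin in fat cells. It was held as 1 clone, BMAPI15F10, whose title likens it to mouse phosphodiesterase 3B. Its signal on repeats 1 to 3 was 190.7, 95.3 and 67.6 in PACAP, against 623.8, 196.1 and 571.1 in control. Control was the brighter channel on each of these 3 arrays. The library median was higher in control on repeat 3 (129.4 against 99.9) and higher in PACAP on repeats 1 and 2. On repeat 4 the Pde3b signals were listed as 34.5 in PACAP and 152.3 in control, but the spot area was 0 pixels and the spot was left out.

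After loess, the log2 ratios of Pde3b were -2.19, -0.93 and -3.35 on repeats 1 to 3. The mean was -2.16 ± 1.21 (SD, n = 3), with a 95% interval of -3.25 to -1.06. In linear terms control was 4.46-fold above PACAP. It passed the unadjusted threshold and ranked 112 by limma's p among the 35112 tested clones, and the adjusted p was 0.454. All 3 values had the same sign, but among clones with a value on 3 arrays 34.4% were lower on all of them. Of all tested clones, 0.222% had a lower mean. The size of the difference varied among repeats, with repeat 2 the smallest and repeat 3 the largest.

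The Pde3b spots were small and scored low. Their areas were 17, 48, 23 and 0 pixels on repeats 1 to 4. The median area of library spots was 115, 108, 109 and 98 pixels, counting those with an area and a control signal above 1. The quality score of the ratio, which runs from 0 to 1, was 0.5, 0.1, 0 and 0. Both channels exceeded 2 background SD on repeats 1 to 3, at 7.17, 6.35 and 7.86 background SD in PACAP and 6.15, 2.70 and 15.03 in control. Signal above background and a low quality score thus occurred on the same spots.

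Spot area moved with the ratio across the whole library on 3 of the 4 arrays. Among tested clones with spots of 1 to 29 pixels, the median log2 ratio was -1.10, -1.51 and -2.12 on repeats 1 to 3 and -0.02 on repeat 4. Among spots of 90 pixels or more it was 0.04, 0.10, 0.19 and -0.002. Small spots as a class were thus lower in PACAP on repeats 1 to 3, and near 0 on repeat 4. Among clones with a median area under 60 pixels, 35.9% were lower at an unadjusted p under 0.05 (limma) and 0.0346% were higher. Among clones of 60 pixels or more, the shares were 3.82% and 4.27%.

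Against spots of like size, Pde3b was lower than the median on each array, though less far. Of the 342 spots within 5 pixels of its area on repeat 1, 14.6% had a lower log2 ratio, and their median was -1.19. On repeat 2, 45.2% of 513 such spots were lower, with a median of -0.85. On repeat 3, 13.6% of 706 were lower, with a median of -2.04. After a loess curve on spot area was subtracted within each array, a setting chosen after seeing the data, the mean of Pde3b was -0.87, still under the unadjusted threshold of 0.05 (limma adjusted p = 0.576). The part of spot area in the reported ratio beyond this adjustment was not tested.

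**Figure D2:**
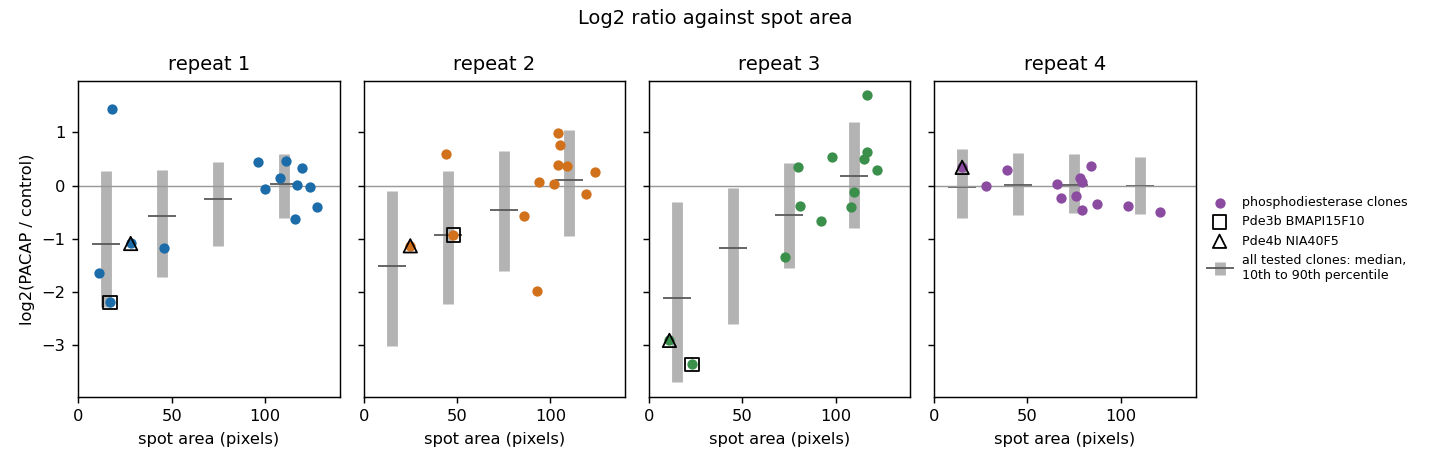
Log2 ratio of PACAP over control (vertical axis) against spot area in pixels (horizontal axis), a panel for each repeat, with coloured points for the phosphodiesterase clones and grey bars for the 10th to 90th percentile and median of all tested clones in 4 area classes. On repeats 1 to 3 the median of spots under 30 pixels lies at -1.10, -1.51 and -2.12, while on repeat 4 the classes stay near 0; squares mark Pde3b (-2.19, -0.93 and -3.35) and triangles Pde4b NIA40F5 (-1.09, -1.13, -2.90 and 0.34).

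Pde4b, a cyclic AMP-specific phosphodiesterase whose transcription is raised by cyclic AMP in several cell types, was held as 2 clones. Clone NIA40F5 had signals of 116.3, 117.6, 76.0 and 277.2 in PACAP, against 199.9, 256.1, 480.6 and 486.9 in control. Control was the brighter channel on all 4 arrays before normalisation. The library median was also higher in control on repeats 3 and 4, at 129.4 and 548.0 against 99.9 and 248.2 in PACAP. The loess-normalised log2 ratios of NIA40F5 were -1.09, -1.13, -2.90 and 0.34 on repeats 1 to 4, so that 3 were lower and repeat 4 was higher. On repeat 4 the raw log2 ratio was -0.81. The mean was -1.19 ± 1.33 (SD, n = 4; limma adjusted p = 0.459), with a 95% interval of -2.26 to -0.13.

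The spots of NIA40F5 covered 28, 25, 11 and 15 pixels with quality scores of 0, 0.1, 0.1 and 0. Its ratios lay on both sides of those of spots of like size, of which 40.4%, 62.4%, 38.6% and 75.9% were lower on repeats 1 to 4. With the curve on spot area subtracted, its mean was -0.07 (limma adjusted p = 0.947). Without repeat 3 it was -0.62 (limma adjusted p = 0.863), and in both settings it missed the unadjusted threshold.

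The other Pde4b clone, BMAPI11H15, had larger spots of 84 to 116 pixels. Its signals were 298.7, 122.3, 60.4 and 220.8 in PACAP, against 340.1, 57.1, 134.4 and 369.8 in control, and control was above background on repeats 1 and 4 only. Its log2 ratios were -0.63, 0.76, -0.66 and 0.38, a pair on each side of 0. The mean was -0.04 ± 0.72 (SD, n = 4; limma adjusted p = 0.969). The difference between the clones was not tested. The clone with full-sized spots thus gave no difference beyond its spread, with an interval of -0.76 to 0.69.

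Pde3a, the other member of the family inhibited by cyclic GMP and known for its role in heart muscle and the oocyte, was held as clone NIA20I9. Its log2 ratios were -1.17, -0.57, 0.35 and 0.29 on repeats 1 to 4, with spots of 46, 86, 80 and 39 pixels. Repeats 1 and 2 were lower and repeats 3 and 4 higher. The mean was -0.28 ± 0.73 (SD, n = 4; limma adjusted p = 0.744). Its control signal was above background on repeats 1 and 4, and its quality score was 0.1 or 0 on every array.

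Pde4a, which hydrolyses cyclic AMP alone, was held as 2 clones. Clone BMAPI7H5 had signals of 1005.7, 340.2, 135.2 and 419.3 in PACAP, against 436.2, 203.8, 129.1 and 1265.7 in control. Its spots were of full size, 104 to 124 pixels, with quality scores of 1, 1, 0.7 and 1. Its log2 ratios were 0.47, 0.26, 0.29 and -0.39, higher on repeats 1 to 3 and lower on repeat 4. The mean was 0.16 ± 0.37 (SD, n = 4; limma adjusted p = 0.825), with an interval of -0.43 to 0.74. The other clone, NIA10M23, had an area of 0 on repeats 2 and 3 and was not tested. Its log2 ratio was -1.64 on repeat 1, from a spot of 11 pixels, and -0.01 on repeat 4, from a spot of 28 pixels.

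Pde4d is a cyclic AMP-specific phosphodiesterase with many isoforms, and its 2 clones gave means near 0 with unlike spreads. Clone BMAPII15k3 had log2 ratios of 0.02, -0.16, 0.63 and 0.14, and a mean of 0.16 ± 0.34 (SD, n = 4; limma adjusted p = 0.823). Clone BMAPII7g12 had 1.44, 0.60, -1.35 and -0.22, with repeats 1 and 2 higher and repeats 3 and 4 lower. Its mean was 0.12 ± 1.19 (SD, n = 4; limma adjusted p = 0.929). Its control signal was above background on repeat 4 only, so the ratios of the other arrays set a measured PACAP signal against control signals of 104.5, 77.6 and 35.9 that were within the background spread. Its spots on repeats 1 and 2, of 18 and 44 pixels, were higher than 99.1% and 95.4% of spots of like size.

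Small spots were shared by only some clones. In all, 10 phosphodiesterase spots on repeats 1 to 3 covered under 60 pixels, of which 8 were lower in PACAP and 2 were higher, both of Pde4d BMAPII7g12. On repeat 4, 3 such spots had log2 ratios between -0.01 and 0.34. Of the 14 clones, 10 had a median area of 60 pixels or more, and their means lay between -0.47 and 0.42 with a median of 0.02.

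Pde7b, a cyclic AMP-specific phosphodiesterase of high affinity, was held as clone BMAPII22e5. Its signals were 637.2, 357.7, 93.9 and 226.6 in PACAP, against 416.9, 195.4, 1.0 and 645.9 in control. The control signal on repeat 3 was at the floor of 1, which gave a raw log2 ratio of 6.55, a ratio that decreased by 4.86 under loess, to 1.69. The loess-normalised log2 ratios were -0.03, 0.39, 1.69 and -0.35, on both sides of 0. The mean of 0.42 ± 0.90 (SD, n = 4; limma adjusted p = 0.651) was the highest of the 13 tested clones, and repeat 3 carried it. Without repeat 3 it was 0.00.

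Pde8a, which hydrolyses cyclic AMP with high affinity and is insensitive to the common inhibitor IBMX, was held as 3 clones. Clone BMAPI28F3 had the most complete measurement, with both channels above background on all 4 arrays, spots of 109 to 128 pixels and a quality score of 1 throughout. Its signals were 1353.3, 918.4, 335.2 and 770.5 in PACAP, against 942.5, 319.8, 170.8 and 2466.5 in control. Its log2 ratios were -0.40, 0.36, 0.49 and -0.50, so repeats 2 and 3 were higher and repeats 1 and 4 lower. The mean was -0.01 ± 0.51 (SD, n = 4; limma adjusted p = 0.991), with an interval of -0.64 to 0.63. In this best-measured clone, a difference of up to about that size in either direction could not be told from 0.

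Of the other Pde8a clones, BMAPII4h18 had log2 ratios of 0.33, 0.99, -0.37 and -0.20, with a mean of 0.19 ± 0.61 (SD, n = 4; limma adjusted p = 0.817). Clone NIA15A24 had 0.45, -1.97, -0.41 and 0.08, with a mean of -0.47 ± 1.06 (SD, n = 4; limma adjusted p = 0.655). Its value on repeat 2 decided that mean, which was 0.04 without it. On that array the spot covered 93 pixels, and 2.73% of spots of like size had a lower ratio. The 3 Pde8a clones did not share a sign on repeat 1, 2, 3 or 4.

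Pde10a, which hydrolyses cyclic AMP and cyclic GMP and is best known from striatal neurons, was held as 2 clones with the same mean. Clone BMAPII22f5 had log2 ratios of 0.15, 0.03, -0.13 and 0.03 on repeats 1 to 4. Its mean was 0.02 ± 0.11 (SD, n = 4; limma adjusted p = 0.978), and 1.35% of all tested clones had a smaller SD. Clone BMAPII9c11 had -0.07, 0.07, 0.54 and -0.46, and a mean of 0.02 ± 0.41 (SD, n = 4; limma adjusted p = 0.980). The intervals were -0.51 to 0.55 and -0.58 to 0.62.

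Of the 56 phosphodiesterase spots, 3 had no area and 53 could be used. All 53 exceeded 2 background SD in the PACAP channel, and 33 did in the control channel. In control this held for 12 of 14 spots on repeat 1, 5 of 13 on repeat 2, 3 of 13 on repeat 3 and 13 of 13 on repeat 4. The quality score was at least 0.5 for 16 of the spots and 0 for 17. The 3 clones with control signal above background on every array with a value were Pde3b BMAPI15F10, Pde4b NIA40F5 and Pde8a BMAPI28F3, apart from the untested Pde4a clone. Repeats 2 and 3 therefore compare a PACAP signal above 2 background SD with a control signal within it for most of the family. The control signal itself was not low there. The library medians on repeats 2 and 3 were 206.4 and 129.4 in control, against 235.5 and 99.9 in PACAP. The background spread was wider in control. On these arrays 2 background SD was 74.4 to 340.0 in control for the phosphodiesterase spots, against 13.4 to 65.0 in PACAP. Control signal within that spread was not confined to the family. Over all library spots, 52.95% and 46.02% exceeded 2 background SD in control on repeats 2 and 3, against 98.4% and 97.8% in PACAP.

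**Figure D3:**
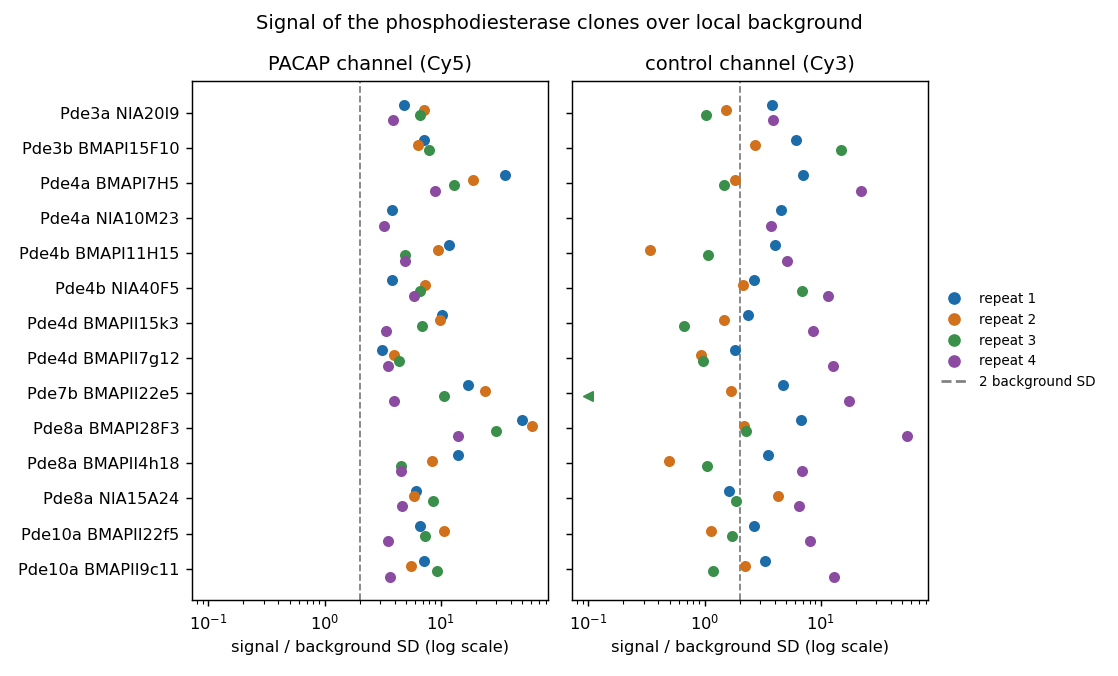
Signal over local background SD (horizontal log axis) for each phosphodiesterase clone, in the PACAP channel (left) and the control channel (right), coloured by repeat, with a dashed line at 2 background SD. All 53 usable spots lie above the line in the PACAP channel and 33 in the control channel, where the orange and green points of repeats 2 and 3 fall mostly below it; a triangle marks a value below the axis (Pde7b, repeat 3).

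Phosphodiesterase families outside the 8 genes were held as 19 clones of 10 genes. By the brightest clone of each gene, 6 had a mean above 0 and 4 below it, with a median of 0.19. None of the 19 clones passed the adjusted p (limma). At an unadjusted p under 0.05, 0 of the 10 brightest clones passed, and 1 of the 19 clones did, Pde5a BMAPI16D4. By the brightest clone, the genes of smallest p were Pde6b, a catalytic subunit of the rod photoreceptor enzyme, at 0.66 ± 0.65 (SD, n = 4; limma adjusted p = 0.481), and Pde6d, a carrier of prenylated proteins, at -0.60 ± 0.55 (SD, n = 4; limma adjusted p = 0.488). The other Pde6d clone was higher in PACAP, at 0.44.

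The clone that passed the unadjusted threshold, Pde5a BMAPI16D4, had spots with a median area of 37 pixels and log2 ratios of -0.58, -1.28, -2.68 and 0.03. Pde5a hydrolyses cyclic GMP and is the target of sildenafil. The mean was -1.13 ± 1.16 (SD, n = 4; limma adjusted p = 0.454), whereas the other 2 Pde5a clones, with full-sized spots, had means of 0.30 and 0.10. This clone, like Pde4b NIA40F5, was lower on repeats 1 to 3 and near or above 0 on repeat 4. It was named after its values were seen.

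Pde2a, which cyclic GMP stimulates, had 3 clones with means of -0.38, -0.32 and -0.42. None of the 3 passed the adjusted p (limma adjusted p = 0.583 to 0.612). Pde8b, the relative of Pde8a, had 3 clones with means of 0.55, 0.16 and 0.67 (limma adjusted p = 0.529 to 0.856). These clones were also singled out after their values were seen.

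The rest of the cyclic nucleotide pathway gave the setting for these values. Of all 11739 genes measured by their brightest clone, 6206 had a mean above 0 and 5533 below it, with a median of 0.03, and 508 were higher and 532 lower at an unadjusted p under 0.05 (limma). None passed the adjusted p, and this holds for every list that follows. Among 8 measured genes of the PACAP receptors and adenylyl cyclases, 0 were higher and 2 lower at the unadjusted threshold, and the median was -0.12. Adcy6 and Adcy7, which make cyclic AMP, were these 2. Adcy6 had -0.41, -0.59, -1.13 and -0.61 on repeats 1 to 4 (mean -0.68 ± 0.31, SD, n = 4; limma adjusted p = 0.454), with its other clone higher. Adcy7 had -0.85, -0.46, -1.36 and -0.10 (mean -0.69 ± 0.54, SD, n = 4; limma adjusted p = 0.468). Both were lower on all 4 arrays.

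Of 15 measured genes of protein kinase A, its inhibitors and anchors, 3 were higher and 1 lower at the unadjusted threshold, with a median of 0.05. Akap9, a large anchoring protein, had -0.19, 2.29, 1.07 and 2.76 (mean 1.48 ± 1.32, SD, n = 4; limma adjusted p = 0.454), from a clone with control signal above background on 2 arrays. Its values split between repeat 1, near 0, and the others, well above it. Prkar2a, a regulatory subunit, had 0.65 ± 0.34 (SD, n = 4; limma adjusted p = 0.457) and was higher on all 4 arrays, with control signal above background on 1 of them.

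Among the effectors and transcription factors downstream of cyclic AMP, more means lay above 0 than below it. Of 6 measured genes of the cyclic AMP-activated exchange factors and their Rap targets, 4 had a mean above 0 and 2 below it, with a median of 0.09, and 2 were higher and 0 lower at the unadjusted threshold. Both are Rap GTPases, and the titles of their clones name other genes. The Rap1b clone, at 1.05 ± 0.35 (SD, n = 4; limma adjusted p = 0.454), was titled as a ubiquitin-like activating enzyme subunit. The Rap1a clone, at 0.76 ± 0.52 (SD, n = 4; limma adjusted p = 0.454), was titled casein alpha, and 2 of 3 other clones of that gene were lower. Of 12 measured cyclic AMP response transcription factors, 9 had a mean above 0 and 3 below it, with a median of 0.24, and 1 was higher and 0 lower at the unadjusted threshold.

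That gene was Crem, a cyclic AMP-responsive factor with an inducible repressor isoform. Its clone had log2 ratios of 1.66, 1.77, 1.29 and 1.02 (mean 1.44 ± 0.35, SD, n = 4; limma adjusted p = 0.454), with control signal above background on 3 arrays. All 4 values lay above those of every clone of the 8 phosphodiesterase genes on the same array, apart from repeat 3, where Pde7b, with its control signal at the floor, was above it at 1.69. Next in the list was Ep300, a coactivator, at 0.49 ± 0.57 (SD, n = 4; limma adjusted p = 0.538). Among 7 measured guanylyl cyclases and cyclic GMP kinases, 1 was higher (Gucy1a1, 0.66 ± 0.38) and 1 lower (Gucy2f, -1.23 ± 1.08) at the unadjusted threshold, with a median of 0.10 (SD, n = 4 each; limma adjusted p = 0.460 and 0.454).

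The genes whose pattern over the arrays was most like that of each phosphodiesterase were taken by the root mean square difference of log2 ratios. For Pde3b these were Prrx2 (0.17), Rfc4 (0.25) and Zmynd19 (0.26) over 3 arrays, and 9 of 11587 genes came within 0.5 log2 units. The clones of these 3 genes also had small spots, with median areas of 33, 42 and 26.5 pixels. Their log2 ratios on repeat 4, where Pde3b gave no value, were -0.31, -0.16 and -0.06. For Pde4b NIA40F5 the nearest were Jam3 (0.14), Notch1 (0.21) and Trmt1l (0.22), with median areas of 97.5, 30.5 and 40 pixels. For Pde10a BMAPII22f5 the nearest, Pcif1 (0.05), was 1 of 777 genes within 0.25 log2 units, so the pattern of that clone was common. Pde7b lay nearest to Wsb2 (0.05), Pde8a BMAPI28F3 to Necap2 (0.08) and Pde4a BMAPI7H5 to Lin7b (0.06). Pde4d BMAPII15k3 lay nearest to Rnf10 (0.04) and Pde3a to Il17re (0.10). Within 0.25 log2 units of these clones lay 38, 215, 339, 573 and 19 genes, in that order. Only the brightest clone of each gene was compared.

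The means were recomputed under 16 other ways of processing. Pde3b kept its direction in the 14 that gave a value, from -5.02 to -0.87, with an unadjusted p under 0.05 (limma) in 14 and an adjusted p from 0.0736 to 0.863. It gave no value where spots under 60 pixels or of quality under 0.5 were left out. Some of the 14 could not change its mean. No filter, both channels above background, trend and robust moderation, or repeat 4 left out kept its 3 values and mean of -2.16. Without repeat 1, 2 or 3 its mean rested on 2 arrays. Pde4b NIA40F5 stayed lower in 14, from -2.46 to -0.07, with an unadjusted p under 0.05 in 8. The first 3 of those settings kept its mean of -1.19 too. The other 11 tested clones each had a mean of the opposite sign under at least 1 of these ways.

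**Figure D4:**
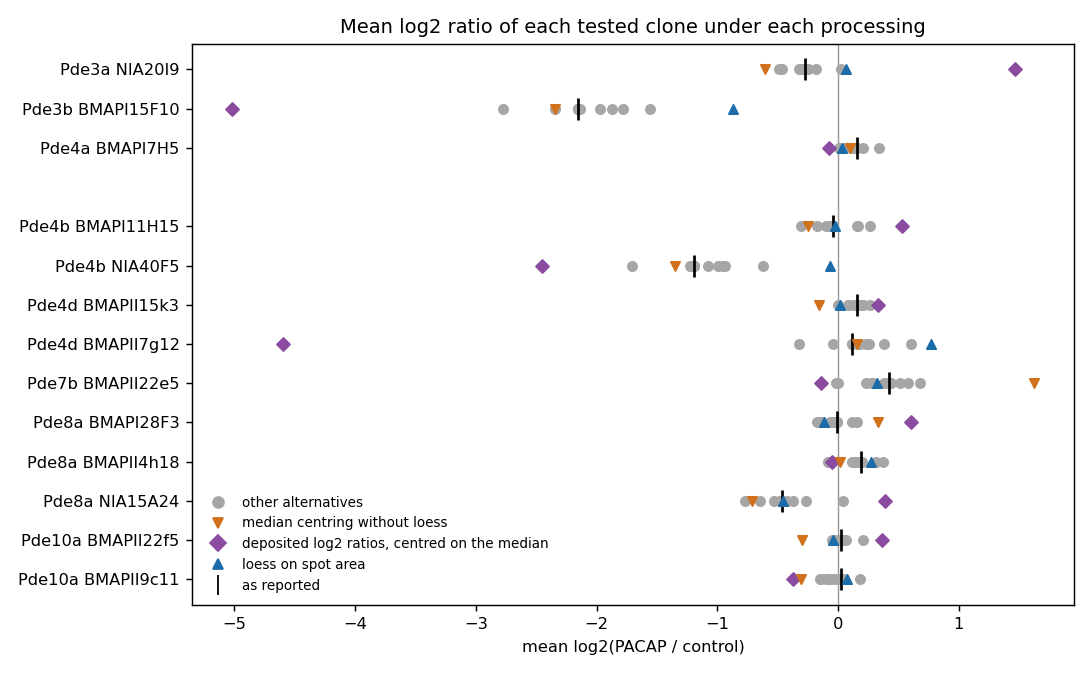
Mean log2 ratio of PACAP over control (horizontal axis) for each of the 13 tested clones under each processing, with a black tick for the reported value and marked symbols for median centring, the deposited log2 ratios and loess on spot area. Pde3b stays between -5.02 and -0.87 and Pde4b NIA40F5 between -2.46 and -0.07, while the points of the other 11 clones fall on both sides of 0.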

How the data were processed

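Bovine chromaffin cells with and without PACAP were compared on 4 two-colour arrays of mouse cDNA clones, and only the spots of each table that held library clones were used. Signal intensity, local background and its SD are linear values per the file headers, and the deposited mean already had the background taken off, as its values show, with a floor near 1. Per the file headers, each spot also has an area in pixels and a quality score between 0 and 1. The deposited ratio divides the red by the green mean and then by an array-wide calibration factor (1.69, 1.97, 1.53 and 0.432). The deposited log2 ratios of the series table were recomputed from the values as the ratio after a second background subtraction, less the log2 of that factor, not centred. Each channel had a floor of 1 after that subtraction. The software that read the images stayed unnamed (not given in the sources used here).

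Here, with a floor of 1 on both intensities, the log2 ratio of PACAP over control was normalised by loess within each array (limma 3.58.1, R 4.3.3). No normexp correction was made, since the means were already corrected. Spots of area 0 were left out, and spots of 1 clone were averaged. Means were tested against 0 with lmFit and eBayes (2-sided) with Benjamini-Hochberg adjustment over 35112 clones, and the code was tested on simulated data. Symbols came from the platform annotation, joined by plate position and kept where the recomputed log2 ratios were within 0.1 (35695 of 35873 entries). Of the library spots 22477 had 1 symbol, 1111 several and 12508 none. The number of arrays limits precision. Every phosphodiesterase clone is named, and of each pathway list the 2 genes of smallest p. For each phosphodiesterase gene, up to 3 genes of most similar pattern were found, and the nearest is given. The members and lists were chosen with earlier results of these data known. Markers of fibroblasts (6 genes measured), endothelium (4) and Schwann cells (3) were listed too, and 0 of them passed at an unadjusted p under 0.05. Tables were made with Python 3.11.15, pandas 2.3.3, numpy 2.4.6 and scipy 1.17.1, and drawn with matplotlib 3.10.9. No sequence is printed.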

Additional observations from a re-analysis of the deposited data

Results flagged for a closer look

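Of 28 per-array values examined, 1 stood apart from the others. The share of library spots with PACAP (Cy5) signal above 2 background SD was 91.9% on repeat 4 (91.93), against 97.6% to 98.4% on repeats 1 to 3. Chance alone marks about 1 in 20 groups of 4 in this way. All 13 usable phosphodiesterase spots of that array were above background in PACAP, and the 1 Pde3b spot of area 0 is on it.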

How the results depend on the processing

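No paired analysis was possible because the 4 arrays form 1 group, and PACAP and control of a repeat are already paired within each ratio. Loess on spot area was chosen after seeing the data. The cause of each change below was not tested, except that leaving out spots or arrays leaves fewer values. Over all clones, 0 passed the adjusted p as reported, 364 with the deposited log2 ratios, 5 without spots of quality under 0.5 and 3 with trend and robust moderation. At an unadjusted p under 0.05, 3647 clones became 6099 with median centring, 2344 with both channels above background, 2369 without low-quality spots and 1869 to 5203 without 1 array. With the deposited ratios 1 phosphodiesterase clone passed, Pde4d BMAPII7g12 at -4.60 (limma adjusted p = 0.0408), the opposite sign to the reported one. On repeats 1 to 3 the deposited ratios of that clone, before centring, had the value given by both channels at the floor of 1. They therefore hold no measure of the difference between the channels. The median over the clones tested was -0.25 with median centring, 0.20 with print-tip loess, -0.60 with both channels above background and -0.077 to 0.15 without 1 array. The 2 clones at an unadjusted p under 0.05 became 1 with print-tip loess, 1 with loess on spot area, 0 without spots under 60 pixels, 0 without low-quality spots and 1 to 2 without 1 array.

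Of 185 values of single clones, 35 had the opposite sign. With the deposited log2 ratios these were Pde3a 1.47, Pde4a BMAPI7H5 -0.0765, Pde4b BMAPI11H15 0.53, Pde7b -0.14, Pde8a BMAPI28F3 0.60, BMAPII4h18 -0.048 and NIA15A24 0.39, and Pde10a BMAPII9c11 -0.38. With median centring they were Pde4d BMAPII15k3 -0.16, Pde8a BMAPI28F3 0.33, and Pde10a BMAPII22f5 -0.30 and BMAPII9c11 -0.31. With loess on spot area they were Pde3a 0.065 and Pde10a BMAPII22f5 -0.046. Print-tip loess gave Pde4b BMAPI11H15 0.26 and Pde10a BMAPII9c11 -0.14. Without spots under 60 pixels, Pde10a BMAPII22f5 was -0.053 and BMAPII9c11 -0.10, and without low-quality spots Pde7b was -0.019. Pde10a BMAPII9c11 was also -0.058 with normexp, -0.079 with scaling between arrays and -0.029 with a constant of 50 added. Without 1 array, Pde3a ran from -0.49 to 0.023, Pde4b BMAPI11H15 from -0.30 to 0.17, Pde4d BMAPII15k3 from -0.0024 to 0.26 and BMAPII7g12 from -0.32 to 0.60. In the same way Pde8a BMAPI28F3 ran from -0.18 to 0.15, BMAPII4h18 from -0.081 to 0.38, NIA15A24 from -0.77 to 0.037, Pde10a BMAPII22f5 from -0.022 to 0.070 and BMAPII9c11 from -0.15 to 0.18.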

Other observations

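Clones outside the members carried a phosphodiesterase title while the platform annotation gave another gene. BMAPI15A7, titled phosphodiesterase 10A and annotated as Rhob, a small GTPase, had log2 ratios of 0.37, 1.06, 1.19 and 0.43, higher in PACAP on all 4 arrays. Its mean was 0.76 ± 0.42 (SD, n = 4; limma adjusted p = 0.454), whereas the Pde10a clones by symbol both averaged 0.02. The clones BMAPI28I22 and NIA37B1, titled phosphodiesterase 8A and annotated as Cdk19, had means of 0.35 ± 0.22 and -0.32 ± 0.65 (SD, n = 4 each; limma adjusted p = 0.586 and 0.684). Which annotation is right was not analysed here.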
